A study of Mus musculus with 8 samples.

Results

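Expression of 7 chemokine receptor genes (Ccr1, Ccr2, Ccr7, Cx3cr1, Cxcr4, Ccrl2 and Ackr3) was followed in bulk RNA-seq of mouse Kupffer cells, macrophages that reside in the liver. The genes were taken by symbol, as 7 of the 32903 genes to which RefSeq transcripts could be assigned, and the TPM of the transcripts of each gene were summed. All 7 were among the 15629 genes tested, that is, genes that reached 1 TPM in 3 or more libraries, and each met that limit within the naive libraries alone. Ackr3 reached 1 TPM in only 2 CCl4 libraries, so it entered the test only through the naive libraries, where it is high. TPM is a transcript abundance per length, scaled to the same total in each library. The 3 CCl4 libraries came from wild-type mice with liver fibrosis after carbon tetrachloride in corn oil given for 8 weeks at 0.75 mL/kg with 3 doses weekly. Carbon tetrachloride is a hepatotoxin whose repeated use scars the liver. The 5 naive libraries came from untreated wild-type mice, so corn oil was not given as a matched vehicle as far as the labels say. Strain, sex and age of the mice and the way the cells were isolated were not given in the sources used here. The CCl4 libraries are numbered 1, 2-4 and 3, and whether 2-4 is a pool of mice is not stated. Whether libraries stem from separate mice is not stated either, so p-values reflect only how these libraries vary, which may in part be technical.

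Chemokine receptors are G protein-coupled receptors that steer leukocytes along gradients of small secreted proteins. In the mouse, Ccr2 lets classical monocytes leave the bone marrow toward injured tissue, Cx3cr1 binds the membrane-anchored chemokine fractalkine and is high on patrolling monocytes, and Cxcr4 holds leukocytes in the marrow through Cxcl12. Ccr1 is a receptor for inflammatory CC chemokines and Ccr7 guides dendritic cells and lymphocytes to lymph nodes. Ccrl2 and Ackr3 are atypical receptors: Ccrl2 binds chemerin and Ackr3 takes up Cxcl12, and neither drives the usual G protein signal. Resident Kupffer cells are largely seeded before birth and renew locally, whereas macrophages that enter an injured liver come mainly from Ccr2-bearing monocytes.

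The libraries held markers of several cell types. The 8 Kupffer cell markers were all lower in CCl4, with a summed 253.8 to 337.1 TPM in CCl4 and 2368 to 5062 TPM in naive libraries, and the 12 sinusoidal endothelium markers were all lower too, with 424.2 to 738.6 TPM in CCl4 and 6568 to 12142 TPM in naive libraries. Clec4f, a lectin of resident Kupffer cells, fell by 4.11 on the log2 scale. Of 12 tested monocyte markers 8 were higher and 2 lower, and the summed level of the 14 listed was 712.8 to 728.8 TPM in CCl4 and 235.0 to 395.1 TPM in naive libraries. Called were 83.3% of the tested monocyte markers and 100% of the Kupffer cell and endothelium markers, against 37.8% of all tested genes. The label of a recruited monocyte set was not met by all markers: Ly6c2, the antigen gene of classical monocytes, reached at most 2.95 TPM in a CCl4 and 3.32 TPM in a naive library, and Vcan, a proteoglycan gene of classical monocytes, at most 0.225 TPM in a CCl4 and 0.422 TPM in a naive library. F13a1, Ms4a4c and Ifitm6 of the same list were among the 8 called higher, with log2 fold changes of 1.93, 2.37 and 1.62. As the markers differed, the genes are called by their family here, not by a cell of origin. Naive replicate 5 stood apart: across the tested genes it correlated with the other naive libraries at 0.943 to 0.951, against 0.968 to 0.981 among those, and with CCl4 at 0.878 to 0.888, against 0.813 to 0.846 for naive replicates 1 to 4 (Pearson's r over genes, which are no replicates). Results that rest on it are given with and without it.

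Of the 7 receptor genes, 5 were higher in CCl4 (Ccr1, Ccr2, Cx3cr1, Cxcr4 and Ccrl2), Ackr3 was lower and Ccr7 did not pass the test (limma on log2(TPM + 1), Benjamini-Hochberg adjusted p under 0.05 over all tested genes). Over all tested genes 37.8% were called, 15.3% higher (2393 genes) and 22.5% lower (3513 genes). With quantile normalization, which moved the median log2 fold change of all tested genes by 0.17, the same test called 4011 higher and 3086 lower, 6 of the 7 receptors higher (Ccr7 added) and Ackr3 lower. The median log2 fold change of the 7 genes was 3.05, against -0.06 over all genes tested. For all 5 of the higher genes every CCl4 library lay above every naive library, which held for 16.3% of all tested genes. No receptor of the 7 lay wholly below naive in CCl4, as 20.6% of all tested genes did, and 36.9% of all tested genes did not overlap in either direction. Without naive replicate 5 the counts were again 5 higher and 1 lower. In bulk RNA, more cells of a type and more RNA per cell cannot be told apart.

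**Figure D1:**
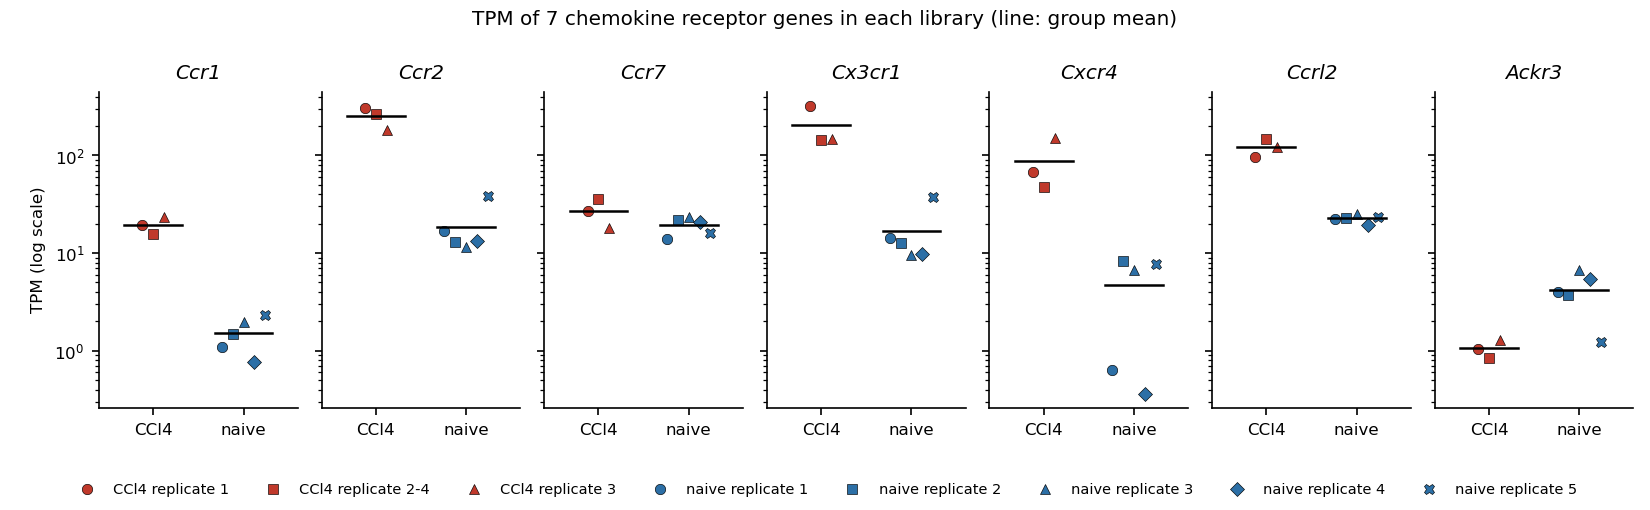
Each panel shows the TPM of a receptor gene on a log axis in the 3 CCl4 libraries (red, left) and the 5 naive libraries (blue, right), with a line at the group mean. Ccr1, Ccr2, Cx3cr1, Cxcr4 and Ccrl2 lie apart between the groups, Ccr7 overlaps, and Ackr3 overlaps through naive replicate 5 at 1.22 TPM.

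Among the inflammatory CC receptors, Ccr2 (GRCm38 chromosome 9, 124101918 to 124109140) was at 307.3, 264.4 and 181.5 TPM in CCl4 replicates 1, 2-4 and 3, against 16.8, 13.1, 11.6, 13.2 and 38.2 TPM in naive replicates 1 to 5. The lowest CCl4 library was above the highest naive one, which was replicate 5. Means were 251.1 ± 63.9 TPM in CCl4 and 18.6 ± 11.1 TPM in naive libraries (SD, n = 3 and 5), a log2 fold change of 3.79 (SE 0.341, limma adjusted p = 1.23e-05). Leaving out naive replicate 5 put the naive mean at 13.7 ± 2.23 TPM and the log2 fold change of Ccr2 at 4.08. It had the highest mean of the 7 in CCl4, with a range that overlapped that of Cx3cr1, and the third highest in naive libraries, where its range overlapped those of Ccrl2, Ccr7 and Cx3cr1.

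Ccr1 (chromosome 9, 123962126 to 123968692), a receptor for Ccl3 and Ccl9 in the mouse, was low in naive cells. It held 19.4, 15.7 and 23.6 TPM in CCl4 replicates 1, 2-4 and 3, against 1.08, 1.49, 1.98, 0.767 and 2.30 TPM in naive replicates 1 to 5. The groups stood far apart, with means of 19.6 ± 4.00 TPM in CCl4 and 1.52 ± 0.628 TPM in naive libraries. The log2 fold change of Ccr1 was 3.05 (SE 0.235, limma adjusted p = 4.68e-06). Its values near 1 TPM in naive libraries make this fold sensitive to the pseudocount, and it was 1.91 with a pseudocount of 5 and 3.67 with 0.1, called in both.

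Cx3cr1 (chromosome 9, 120048683 to 120068296) was at 319.9, 143.8 and 146.5 TPM in CCl4 replicates 1, 2-4 and 3, against 14.2, 12.6, 9.45, 9.82 and 37.3 TPM in naive replicates 1 to 5. CCl4 replicate 1 was high, at more than the sum of the other two CCl4 libraries, and naive replicate 5 was the highest naive library, as for Ccr2. Means were 203.4 ± 100.9 TPM in CCl4 and 16.7 ± 11.7 TPM in naive libraries, a log2 fold change of 3.61 (SE 0.416, limma adjusted p = 6.51e-05), and 3.94 without naive replicate 5. The log2 ratio of Cx3cr1 to Ccr2 within a library was -0.37 ± 0.47 in CCl4 and -0.20 ± 0.15 in naive libraries, a difference of -0.18 that was within the spread (exact two-sided permutation p = 0.571, adjusted p = 0.571 over 3 ratios). Naive replicate 5 had a ratio of -0.03, inside the range of the CCl4 libraries (-0.87 to 0.06) and just above the other naive ones (-0.39 to -0.06).

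Cxcr4 (chromosome 1, 128588199 to 128592299), the receptor of Cxcl12, varied widely between libraries of both groups. It was at 67.0, 47.3 and 151.0 TPM in CCl4 replicates 1, 2-4 and 3, against 0.639, 8.30, 6.75, 0.363 and 7.72 TPM in naive replicates 1 to 5. The naive libraries split into replicates 1 and 4 under 1 TPM and replicates 2, 3 and 5 near 7 TPM, and all lay below CCl4. Means were 88.5 ± 55.1 TPM in CCl4 and 4.75 ± 3.92 TPM in naive libraries, a log2 fold change of 4.22 (SE 0.69, limma adjusted p = 0.000719). This was the largest fold change of the 7 genes and the one with the widest 95% interval, 2.69 to 5.75.

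Ccrl2 (chromosome 9, 111054834 to 111057518), the atypical receptor that binds chemerin, was at 96.5, 148.2 and 123.4 TPM in CCl4 replicates 1, 2-4 and 3, against 22.3, 23.0, 25.4, 19.3 and 23.4 TPM in naive replicates 1 to 5. Its naive libraries were close together, and naive replicate 5 lay inside the range of the others. Means were 122.7 ± 25.9 TPM in CCl4 and 22.7 ± 2.23 TPM in naive libraries, a log2 fold change of 2.37 (SE 0.159, limma adjusted p = 2.2e-06). Ccrl2 was the highest of the 7 by mean in naive libraries, with a range (19.3 to 25.4 TPM) that overlapped that of Ccr7 (13.9 to 23.5 TPM). In CCl4 its range lay below that of Ccr2 and overlapped that of Cx3cr1.

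Ccr7 (chromosome 11, 99144199 to 99155077), the lymph node homing receptor, was at 27.0, 36.0 and 18.1 TPM in CCl4 replicates 1, 2-4 and 3, against 13.9, 21.7, 23.5, 21 and 15.9 TPM in naive replicates 1 to 5. The groups overlapped. Means were 27.0 ± 8.96 TPM in CCl4 and 19.2 ± 4.11 TPM in naive libraries, a log2 fold change of 0.45 (95% interval -0.07 to 0.97, limma adjusted p = 0.165). It was called without CCl4 replicate 3 (0.70, limma adjusted p = 0.0479) and with quantile normalization (0.59, limma adjusted p = 0.0392). CCl4 replicate 2-4, the highest for Ccr7, also held the most summed T, NK and ILC markers of the CCl4 libraries (343.8 TPM, against 121.3 and 107.6 TPM in CCl4 replicates 1 and 3, and 239.4 to 325.2 TPM in naive libraries) and the most B cell markers (168.6 TPM, against 72.9 and 71.4 TPM in CCl4 replicates 1 and 3, and 109.4 to 174.8 TPM in naive libraries). Their part in the Ccr7 level was not tested. The log2 ratio of Ccr7 to Ccr2 was -3.19 ± 0.32 in CCl4 and 0.16 ± 0.90 in naive libraries, with no overlap. The difference was -3.35 (exact two-sided permutation p = 0.0357, the smallest that 3 against 5 libraries allow, and adjusted p = 0.0536 over 3 ratios).

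Ackr3 (chromosome 1, 90203980 to 90215724), the scavenger of Cxcl12, went the other way from low levels. It was at 1.03, 0.833 and 1.30 TPM in CCl4 replicates 1, 2-4 and 3, against 3.96, 3.71, 6.69, 5.45 and 1.22 TPM in naive replicates 1 to 5. Naive replicate 5 lay among the CCl4 libraries and the other naive libraries lay above all of them. Means were 1.06 ± 0.235 TPM in CCl4 and 4.21 ± 2.06 TPM in naive libraries, a log2 fold change of -1.23 (SE 0.345, limma adjusted p = 0.0164). Ackr3 reached 1 TPM in only 2 CCl4 libraries, so it entered the test only through naive libraries, where it is high. Its call therefore carries no weight in the count of genes called lower. The log2 fold change of Ackr3 was -1.51 without naive replicate 5 (limma adjusted p = 0.000215), and the call was lost without CCl4 replicate 2-4 (-1.15, limma adjusted p = 0.0569). Sinusoidal endothelium markers had their highest naive sum in replicate 3 (12142 TPM) and their lowest in replicate 5 (6568 TPM), as did Ackr3, but in CCl4 their highest sum was in replicate 2-4 (738.6 TPM), where Ackr3 was lowest. Their part in the Ackr3 level was not tested. The log2 ratio of Ackr3 to Cxcr4, which bind the same chemokine, was -5.28 ± 0.69 in CCl4 and 0.17 ± 1.75 in naive libraries, a difference of -5.45 (exact two-sided permutation p = 0.0357, adjusted p = 0.0536). With 3 ratios and this smallest p, the adjusted value passes 0.05 only if all 3 reach it.

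By mean level in CCl4 the order was Ccr2, Cx3cr1, Ccrl2, Cxcr4, Ccr7, Ccr1 and Ackr3, at 251.1, 203.4, 122.7, 88.5, 27.0, 19.6 and 1.06 TPM. Ranges overlapped between neighbours in it, except that Cxcr4 lay above Ccr7 and Ccr1 above Ackr3. In naive libraries the order was Ccrl2, Ccr7, Ccr2, Cx3cr1, Cxcr4, Ackr3 and Ccr1, at 22.7, 19.2, 18.6, 16.7, 4.75, 4.21 and 1.52 TPM. Ranges there overlapped between neighbours, except that Cx3cr1 lay above Cxcr4. So Ccr1 was last in naive libraries and Ackr3 last in CCl4, and Ccr7, not called itself, stood lower in the order of CCl4 than in that of naive libraries.

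The start regions of 5 of the genes are shown because 4 of them rose together (Ccr1, Cx3cr1, Cxcr4 and Ccrl2) and Ackr3 fell. Of the 7 genes, 6 had a window in the RefSeq promoter table of GRCm38.p6. That of Ccr2 lies inside the annotated gene, downstream of other starts, and is not shown. Each sequence is the 250 bases before the annotated start, written 5′ to 3′ on the strand of the gene: Ccr1 at chr9:123968693-123968942 (minus), Cx3cr1 at chr9:120068297-120068546 (minus), Cxcr4 at chr1:128592300-128592549 (minus), Ccrl2 at chr9:111057519-111057768 (minus) and Ackr3 at chr1:90203730-90203979 (plus). Capitals mark matches, on either strand, to 5 motifs: AP-1 (TGANTCA), the PU.1 core (GAGGAA), the interferon-stimulated response element, the hypoxia response element core (ACGTG) and the TATA box (TATAAA).
Ccr1: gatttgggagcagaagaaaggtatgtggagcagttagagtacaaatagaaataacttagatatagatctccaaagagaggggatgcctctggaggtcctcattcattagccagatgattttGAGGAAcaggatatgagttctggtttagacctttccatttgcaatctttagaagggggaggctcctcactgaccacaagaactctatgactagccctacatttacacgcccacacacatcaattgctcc
Cx3cr1: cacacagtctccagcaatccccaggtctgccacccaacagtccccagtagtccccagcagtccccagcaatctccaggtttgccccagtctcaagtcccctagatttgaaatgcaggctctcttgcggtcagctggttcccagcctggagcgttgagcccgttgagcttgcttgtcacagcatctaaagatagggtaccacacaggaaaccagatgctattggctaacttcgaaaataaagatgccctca
Cxcr4: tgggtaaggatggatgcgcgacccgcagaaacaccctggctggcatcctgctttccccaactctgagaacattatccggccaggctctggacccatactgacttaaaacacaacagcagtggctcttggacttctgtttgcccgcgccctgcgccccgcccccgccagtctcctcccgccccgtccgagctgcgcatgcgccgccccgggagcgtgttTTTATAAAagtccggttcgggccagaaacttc
Ccrl2: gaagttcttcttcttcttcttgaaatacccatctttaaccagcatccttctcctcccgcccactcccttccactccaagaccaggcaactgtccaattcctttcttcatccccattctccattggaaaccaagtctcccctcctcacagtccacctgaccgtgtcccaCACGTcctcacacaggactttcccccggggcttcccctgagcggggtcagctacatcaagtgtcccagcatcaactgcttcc
Ackr3: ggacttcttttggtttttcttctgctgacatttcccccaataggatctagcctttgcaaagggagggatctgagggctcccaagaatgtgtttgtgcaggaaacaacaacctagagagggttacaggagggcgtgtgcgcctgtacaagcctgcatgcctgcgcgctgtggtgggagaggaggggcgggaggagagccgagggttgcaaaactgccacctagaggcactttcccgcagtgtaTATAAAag
Cxcr4 held TATAAA from 30 bases before its start, overlapped by a match on the opposite strand, and Ackr3 held it from 8 bases before its start, where 12.4% of the 32851 windows of this length hold one. Ccr1 held GAGGAA from 129 bases before its start (23.3% of windows hold one), and Ccrl2 held the hypoxia core on the opposite strand from 82 bases before its start (16.6% of windows). None of the 5 windows held the AP-1 or interferon motif, which 6.75% and 2.98% of windows hold, and the Cx3cr1 window held none of the 5 motifs. So the 4 genes that rose together shared no motif of these 5 in these windows, and a match or its absence is only a description of the letters.

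Transcripts of a gene were then compared, since a sum can hide a switch between them. Ccr2 has 4 measured transcripts, and XM_011243064.2 held the most in every library: 238.4, 199.3 and 138.0 TPM in CCl4 replicates 1, 2-4 and 3, against 11.4, 11, 8.08, 9.12 and 19.8 TPM in naive replicates 1 to 5. Its share of Ccr2 was 76.3 ± 1.14% in CCl4 and 68.4 ± 11.2% in naive libraries, a difference within the spread (exact two-sided permutation p = 0.286, adjusted p = 0.524 over 4 genes). NM_009915.2, the curated Ccr2 transcript, held 9.56 to 25.7 TPM in CCl4 and 0.0699 to 16.4 TPM in naive libraries, and in a fit of single transcripts it was not called (log2 fold change 2.03, limma adjusted p = 0.106). XM_011243064.2 and XM_011243063.1 were called there (3.93 and 4.32). For Cx3cr1 both transcripts were called in that fit, NM_009987.4 with a log2 fold change of 3.30 and XM_011242934.1 with 3.95, and the share of NM_009987.4 was 56.8 ± 8.60% in CCl4 and 69.3 ± 13.1% in naive libraries (exact two-sided permutation p = 0.143, adjusted p = 0.524). The shares of the main Ccr7 and Ccrl2 transcripts also differed by less than the spread (exact two-sided permutation p = 0.857 and 0.393).

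Cxcr4 was measured by 2 of its 3 RefSeq transcripts, and different ones carried it in different CCl4 libraries. NM_009911.3 held 67.0, 0.208 and 151.0 TPM in CCl4 replicates 1, 2-4 and 3, against 0.639, 8.29, 6.75, 0.359 and 6.78 TPM in naive replicates 1 to 5. XM_006529114.2 held 47.1 TPM in CCl4 replicate 2-4, under 0.01 TPM in CCl4 replicates 1 and 3, and at most 0.938 TPM in a naive library. NM_009911.3 by itself was not called (log2 fold change 2.48, limma adjusted p = 0.292), so the Cxcr4 call rests on the sum. A fitted TPM divides reads that match several transcripts of a gene, and whether the assignment or the RNA differed in replicate 2-4 was not tested. Of Ackr3, NM_007722.4 carried the level in CCl4, where NM_001271607.1 was listed at 0 in all 3 libraries. By itself NM_007722.4 was not called (log2 fold change -0.95, limma adjusted p = 0.0846).

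**Figure D2:**
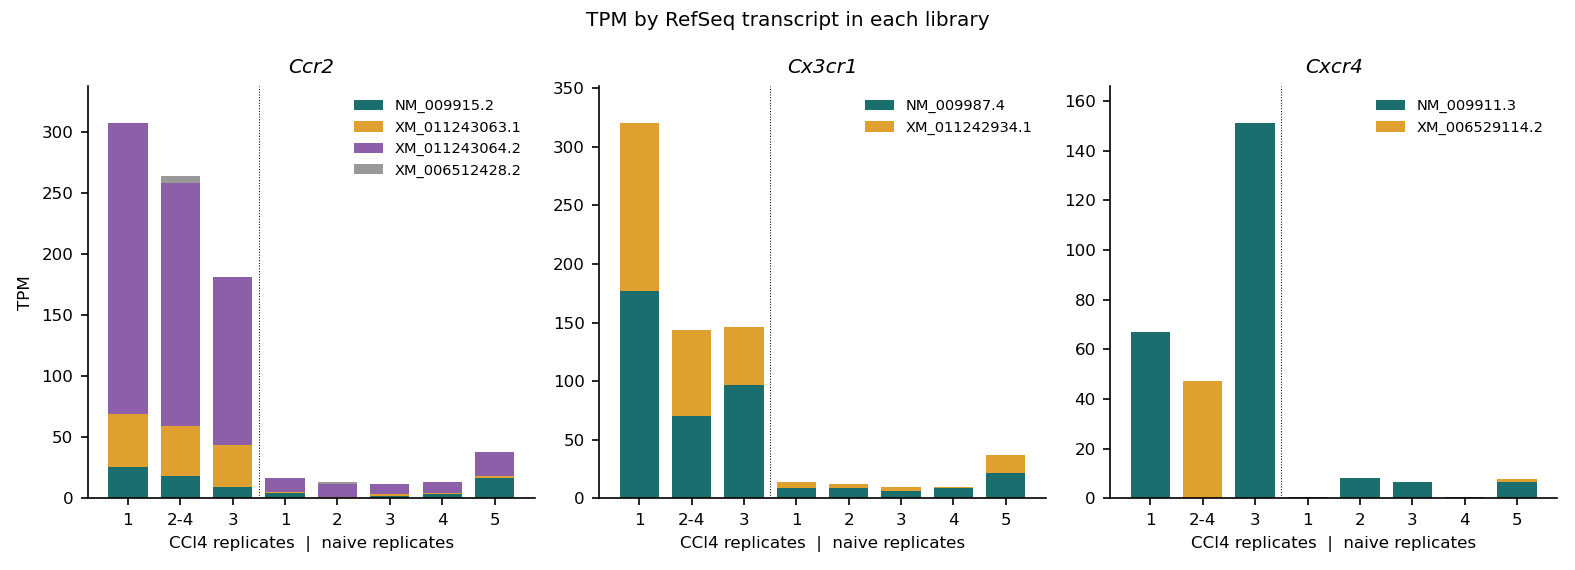
Stacked bars give TPM (linear axis from 0) by RefSeq transcript of Ccr2, Cx3cr1 and Cxcr4 in CCl4 replicates 1, 2-4 and 3 (left of the dotted line) and naive replicates 1 to 5 (right). XM_011243064.2 makes up most of Ccr2 in all 8 libraries, and Cxcr4 is carried by XM_006529114.2 in CCl4 replicate 2-4 and by NM_009911.3 in CCl4 replicates 1 and 3.

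Of the other receptors of the family most of those called were lower. Of 19 listed, 16 were tested, of which 1 was higher and 7 were lower in CCl4 (Ackr1, Ackr2, Ackr4, Gpr182, Ccr3, Cxcr5 and Cxcr6), with a median log2 fold change of -0.53. This was 50% called, against 37.8% of all tested genes. In CCl4 replicate 1 Ackr1 was at 0.867 TPM and Ackr4 at 0.557 TPM, and Ccr3 was at most 0.577 TPM in CCl4. So Ackr1, Ackr4 and Ccr3 entered the test only through naive libraries, where they are high. Their calls carry no weight in the count of receptors called lower or in the share called. The atypical receptors Ackr1, Ackr2 and Ackr4, known from endothelium, were among the lower ones. Ackr1 fell by 3.56, Ackr2 by 3.48 and Ackr4 by 2.38 on the log2 scale, and Gpr182, a chemokine-binding receptor of sinusoidal endothelium, averaged 17.6 ± 5.24 TPM in CCl4 and 637.0 ± 203.7 TPM in naive libraries. These 4 were called in each of the 19 alternatives. For Ackr1 and Ackr4, which entered the test through naive libraries, this adds no weight to the count. The calls of Ccr3, Cxcr5 and Cxcr6 were not as stable: only 4 of the other receptors were called lower with no filter on low values, with quantile normalization, and without CCl4 replicate 1 or 3 or naive replicate 1, 2 or 4. Ccr3 was not tested without naive replicate 1, 2 or 4. Sinusoidal endothelium markers fell beside them, with a median log2 fold change of -4.45, and their part was not tested.

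As a share of the summed TPM of 24 chemokine receptors (the 7 genes and the other listed ones without Gpr182 and the chemerin receptor Cmklr1), the 7 genes held 80.3%, 77.8% and 80.7% in CCl4 replicates 1, 2-4 and 3, against 25.3%, 25.6%, 28.2%, 25.2% and 42.2% in naive replicates 1 to 5. Ccr2 made up 22.7% to 31.3% of the sum in CCl4 and 3.84% to 12.8% in naive libraries, and Cx3cr1 made up 17.0% to 30.6% in CCl4 and 3.12% to 12.5% in naive libraries. The sum itself was 799.8 to 1044 TPM in CCl4 and 278.1 to 327.3 TPM in naive libraries.

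Ccr1 and Ccr2 sit in a cluster of chemokine receptor genes on chromosome 9, and the genes described here moved differently. Between Ccr1 and Ccr2 lie Ccr1l1, which was below the filter at 0.281 ± 0.274 TPM in CCl4 and 0.443 ± 0.309 TPM in naive libraries, and Ccr3, an eosinophil receptor, at 0.339 ± 0.206 TPM in CCl4 and 2.82 ± 2.18 TPM in naive libraries. Ccr3 had a log2 fold change of -1.29 (limma adjusted p = 0.0467), a call lost in 7 of the 15 alternatives in which it was tested. It reached 1 TPM in 3 naive libraries and in no CCl4 library, so it entered the test only through the group where it is high. On the far side of Ccr1, Ccr9 (-0.40, limma adjusted p = 0.0987) and Xcr1 (0.12, limma adjusted p = 0.782) did not pass and Cxcr6, a receptor of NK and T cells, fell by 0.68 (limma adjusted p = 0.0392). The difference in fold change between neighbours was not tested.

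**Figure D3:**
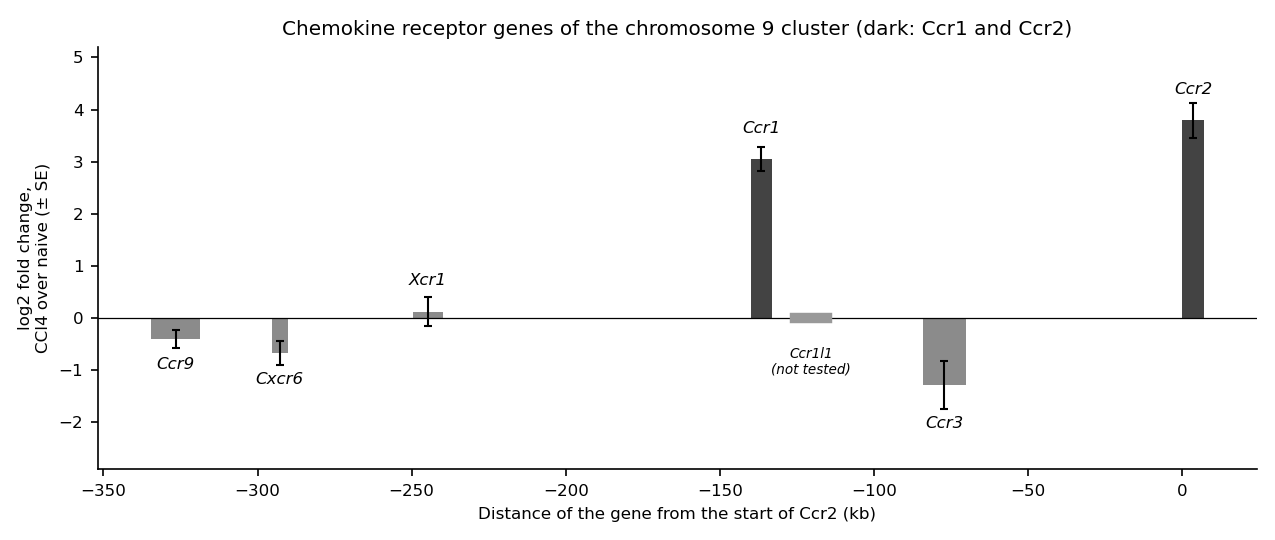
Bars give the log2 fold change of CCl4 over naive (± SE) of chemokine receptor genes of the chromosome 9 cluster, placed by their distance from the start of Ccr2 in kb and as wide as the gene. Ccr1 and Ccr2 (dark) are at 3.05 and 3.79, and the other tested genes shown run from -1.29 to 0.12.

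Ligands of the 7 receptors were measured in the same libraries. Of 17 listed, 13 were tested, 5 were higher in CCl4 (Ccl2, Ccl3, Ccl4, Ccl9 and Cx3cl1) and none was lower, with a median log2 fold change of 0.34. The share called, 38.5%, was near the 37.8% of all tested genes, so the total says nothing particular of the ligands. By direction, all those called were higher, where 15.3% of all tested genes were higher and 22.5% lower. Whether the ligands differ from other genes by direction was not tested. Ccl9, a ligand of Ccr1, averaged 63.4 ± 15.6 TPM in CCl4 and 7.20 ± 3.25 TPM in naive libraries, a log2 fold change of 3.02 (SE 0.276, limma adjusted p = 1.38e-05). Ccl3, another ligand of Ccr1, rose by 1.84, and the related chemokine Ccl4 by 1.95. Ccl2, the ligand that draws Ccr2-bearing monocytes, averaged 35.5 ± 9.67 TPM in CCl4 and 20.9 ± 3.83 TPM in naive libraries (log2 fold change 0.72, limma adjusted p = 0.0169), and its call was lost without CCl4 replicate 1 or 3. In these cases 3 ligands were called higher, and Cx3cl1 was not tested. Cx3cl1, which encodes fractalkine, was low in both groups at 2.15 ± 0.727 TPM in CCl4 and 0.482 ± 0.12 TPM in naive libraries (log2 fold change 1.07, limma adjusted p = 0.00136). Its naive values were all under 1 TPM, so it entered the test only through the CCl4 libraries, where it is high, and its call carries no weight in the count of ligands. Ccl7, a further Ccr2 ligand, had a log2 fold change of -0.80 and was not called (limma adjusted p = 0.0912), but it was called lower without CCl4 replicate 1. Without CCl4 replicate 2-4 Ccl5 was called lower, and without naive replicate 5 Ccl21a was. Ccl21a was at most 0.924 TPM in CCl4, so it entered the test only through naive libraries, where it is high. Its call carries no weight in the count of ligands.

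The Ackr3 and Cxcr4 ligand Cxcl12 was at 10.7 ± 1.35 TPM in CCl4 and 10.9 ± 1.70 TPM in naive libraries, a log2 fold change of -0.01 with a 95% interval of -0.38 to 0.36, and its sign differed in 7 of 19 alternatives. Of the Ccr7 ligands, Ccl19 and Ccl21b were listed at 0 in all 3 CCl4 libraries and reached 2.08 and 4.17 TPM in a naive library.

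**Figure D4:**
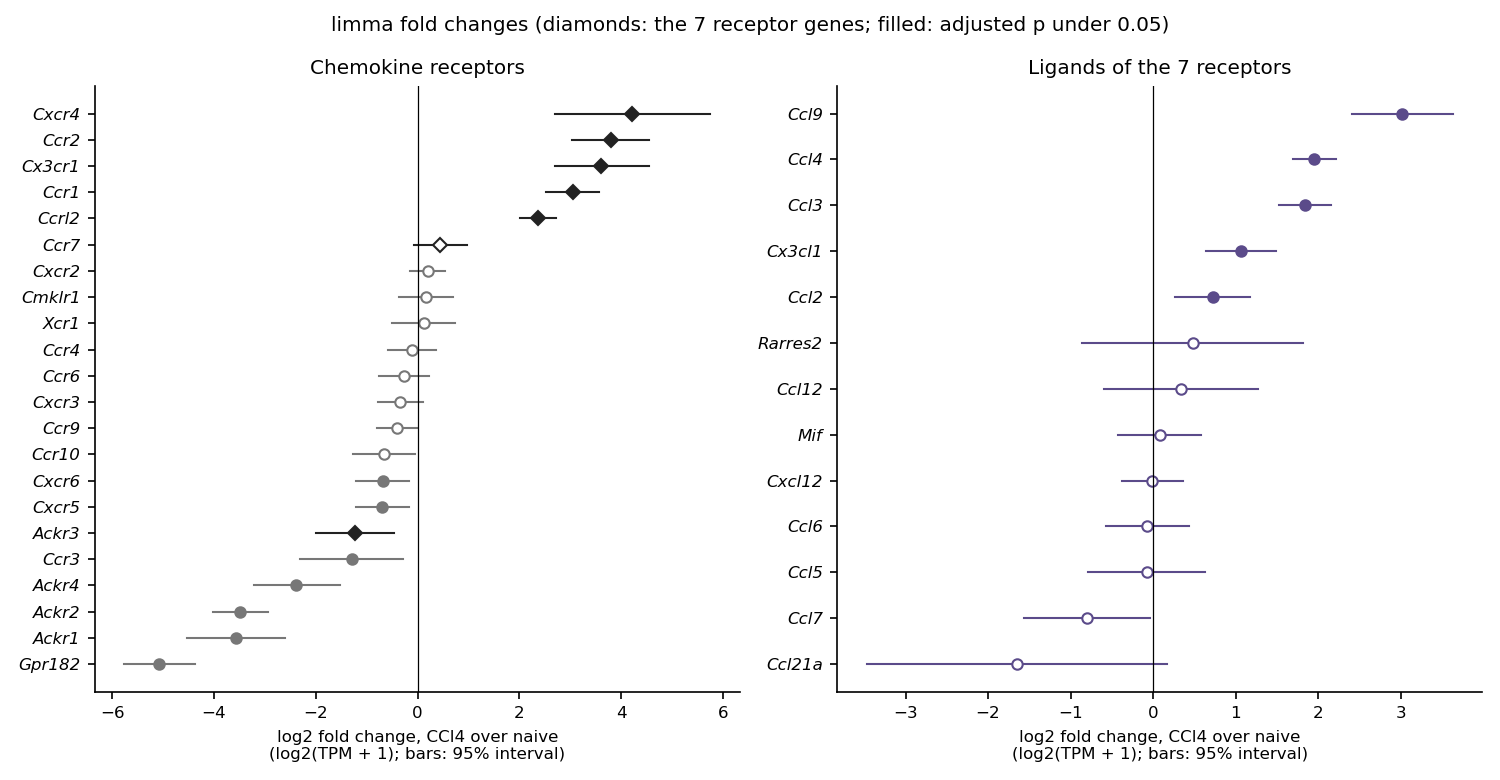
Points give the limma log2 fold change of CCl4 over naive on the log2(TPM + 1) scale with 95% intervals for chemokine receptors (left panel, the 7 genes as diamonds) and tested ligands (right panel); filled points have an adjusted p under 0.05. The 5 called higher among the diamonds lie from 2.37 to 4.22, Ackr1, Ackr2, Ackr4 and Gpr182 lie from -5.07 to -2.38, and the highest ligand is Ccl9 at 3.02.

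Genes that carry or end the signal of these receptors changed in both directions. Of 25 listed, all were tested, 13 were higher and 2 lower in CCl4, with a median log2 fold change of 0.79. This was 60% called, against 37.8% of all tested genes. The regulators Rgs1, Rgs2 and Rgs10, which speed up the switching off of G proteins, rose by 1.75, 1.72 and 1.57 on the log2 scale. Rgs1 averaged 495.8 ± 109.6 TPM in CCl4 and 146.6 ± 26.2 TPM in naive libraries. Grk3, a kinase that phosphorylates occupied receptors, averaged 81.6 ± 21.2 TPM in CCl4 and 15.6 ± 6.46 TPM in naive libraries, a log2 fold change of 2.36. Plcb2, a phospholipase downstream of G protein subunits, rose by 1.59 and Elmo1, a partner of Dock2 in cell movement, by 1.62. The 2 that fell were Arrb1, an arrestin, by 1.05, and Gnb1, a G protein beta subunit, by 0.66. All 8 of these named genes had a limma adjusted p of at most 0.00633. Of 10 adhesion genes of leukocyte traffic, 5 were higher and 3 lower (80% called). Itgb2, the beta 2 integrin, averaged 269.0 ± 9.70 TPM in CCl4 and 99.6 ± 48.0 TPM in naive libraries, and Itgb1 fell by 0.56. Itgal, a partner chain of Itgb2 on lymphocytes and monocytes, was not called (log2 fold change 0.55, limma adjusted p = 0.0791).

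Other markers moved with the receptors. Of the monocyte markers S100a4 rose by 3.39 and Nr4a1, a factor of patrolling monocytes, by 1.85, while Plac8 was not called (log2 fold change 0.09). Treml4 and Cd300e, also markers of patrolling monocytes, fell by 1.06 and 1.76. Spn and Ace of the same list were called higher, with log2 fold changes of 1.48 and 0.91. Of 10 immediate early genes 9 were higher and none lower (90% called, against 37.8% of all tested genes). They summed to 3402 to 5148 TPM in CCl4 and 1697 to 2577 TPM in naive libraries. Naive replicate 5 had the lowest sum of these, at 1697 TPM, with the highest naive Ccr2 and Cx3cr1. In CCl4 the immediate early sum was lowest in replicate 1 (3402 TPM) and highest in replicate 2-4 (5148 TPM). So was Nr4a1, at 67.9 and 212.3 TPM, while Ccr2 and Cx3cr1 were highest in CCl4 replicate 1. Whether the Nr4a1 level reflects monocytes was not tested. Dendritic cell markers went both ways, 4 of 12 higher and 4 lower (66.7% called), with 438.1 to 667.7 TPM in CCl4 and 294.9 to 392.9 TPM in naive libraries. Of these Cd209a averaged 151.8 ± 23.2 TPM in CCl4 and was at 14.7 TPM in naive replicate 5 and 0.444 to 1.15 TPM in naive replicates 1 to 4. Among markers of migrating Ccr7-bearing dendritic cells, Fscn1 averaged 22.3 ± 7.37 TPM in CCl4 and 104.3 ± 26.4 TPM in naive libraries and was called lower. Cacnb3 and Ccl22, also such markers, were not called, with log2 fold changes of 0.79 and 0.36. Il12b of the dendritic cell list was called lower, but it was at 0.457 TPM in CCl4 replicate 3. It entered the test only through naive libraries, where it is high, and its call carries no weight in the count. Of 8 neutrophil markers 3 were tested. Csf3r, the G-CSF receptor gene and the most abundant of them, averaged 33.5 ± 10.4 TPM in CCl4 and 15.0 ± 3.14 TPM in naive libraries and was called higher (log2 fold change 1.08, limma adjusted p = 0.00392). S100a9 was called lower, but it entered the test only through naive libraries, where it is high. Ly6g was listed at 0 in all 8 libraries, and S100a8 was at most 0.957 TPM in CCl4 and 2.18 TPM in naive libraries. Of 17 T, NK and ILC markers 1 was higher and 5 lower, and of 7 B cell markers none was higher and 2 were lower. These are 35.3% and 28.6% called, against 37.8% of all tested genes. Of 8 hepatocyte markers 6 were lower (75% called), and of 8 stellate cell markers 3 were higher and 1 lower (50% called). The part of these cells in the receptor levels was not tested.

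**Figure D5:**
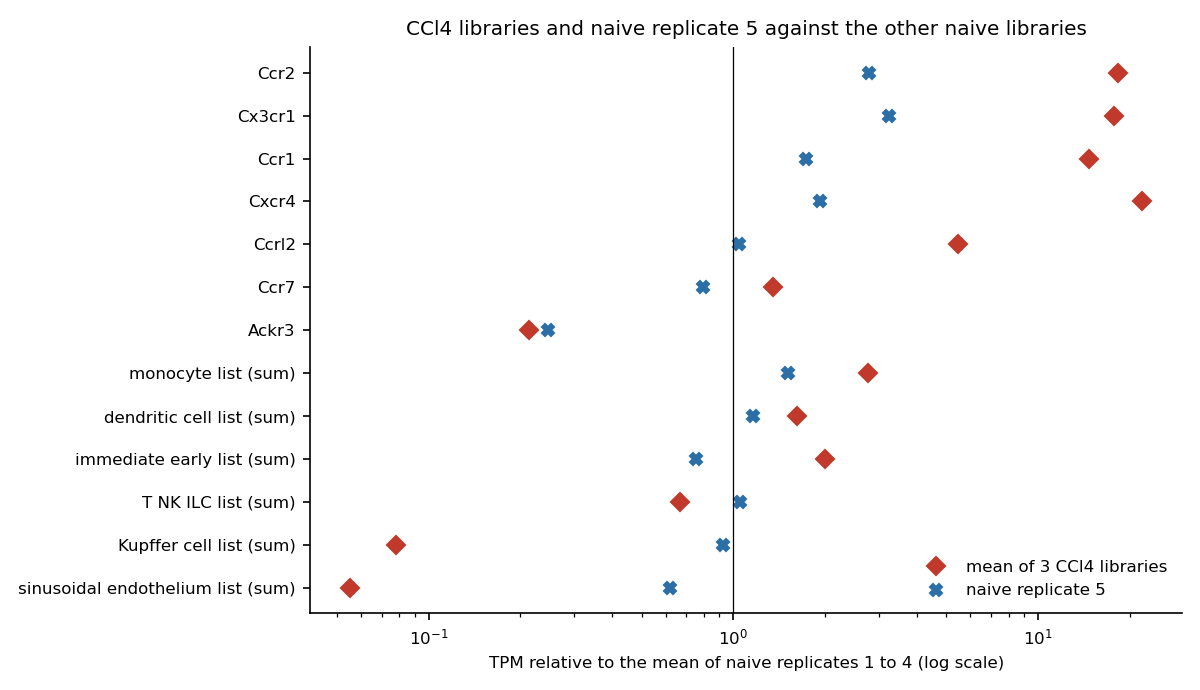
Points give TPM relative to the mean of naive replicates 1 to 4 (log axis) for the 3 CCl4 libraries together (red diamonds) and naive replicate 5 (blue crosses), for the 7 genes and for summed marker lists. Naive replicate 5 was 2.79-fold for Ccr2, 3.24-fold for Cx3cr1 and 0.247-fold for Ackr3, and the CCl4 mean was 18.3-fold, 17.7-fold and 0.213-fold.

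The genes whose level across the 8 libraries was closest in shape to each receptor were listed by the root mean square difference of log2(TPM + 1) after centring each gene, over 15005 tested genes. This is a description that the group difference dominates. Ccl9 was the closest to Ccr1 (0.25). Itgam, the integrin chain of CD11b, was close to Ccr2 (0.29) and averaged 124.2 ± 9.23 TPM in CCl4 and 12.5 ± 7.62 TPM in naive libraries. Ptafr, the platelet-activating factor receptor, was the closest to Cx3cr1 (0.27). Ccrl2 had Ptchd1 (0.16) and the immediate early transcription factor Egr2 (0.18) as its closest, and Ccr7 had Gm15326 (0.12) and Fam174c (0.15). Pacsin3 and Gm36216 were closest to Ackr3 (0.17 each). Cxcr4 had no close match, since its nearest gene, the lectin Mgl2, was at 0.95.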

How the data were processed

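The deposited values for isolated Kupffer cells are TPM of RefSeq transcripts, per the file headers, for 3 CCl4 and 5 naive libraries, each summing to 999999 to 1000001. Libraries were strand-specific and made from total RNA, per the labels' protocols. Build GRCm38 and kallisto 0.42.4 are listed in the submitters' processing notes; index, trimming and filters were not given in the sources used here. Depth is unknown, because TPM do not hold it, and errors come from the spread of libraries.

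Of 107384 transcripts, 86722 matched a gene of the RefSeq table of GRCm38.p6 by accession without version, and were summed to 32903 genes. The 20662 unmatched transcripts held 6.06% to 7.58% of TPM; GENCODE M21 tied none of them to a listed gene. Genes that reached 1 TPM in 3 or more libraries entered limma 3.58.1 (R 4.3.3) as log2(TPM + 1) (trend, group as the only term, Benjamini-Hochberg). This scale understates the change of low genes. The fit was also run on simulated data with independent genes, the naive spread in both groups and a shift in few genes. The real libraries differ from that setting, so the simulation does not show how the fit behaves here. Ratios and transcript shares were compared by exact two-sided permutation over the 56 arrangements of 3 and 5 libraries.

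The 7 genes, the lists and the motifs were chosen with earlier results of these data known. All 7 genes are given in full; up to 6 other receptors, ligands and signalling genes by adjusted p, up to 3 members of other lists by level, and the 2 genes closest to each receptor are named by rule, apart from items that are not reported here. Ccr3, Cxcr6, Ccr9 and Xcr1 were named by position. Itgam, Ly6c2, Vcan, Arrb1, Gnb1, Cxcl12, Ccl19, Ccl21a, Ccl21b, Ccl5, Ly6g, S100a8, Treml4, Cd300e, Cacnb3 and Ccl22 were named once their values were known. So were F13a1, Ms4a4c, Ifitm6, Spn, Ace and Il12b. Alternatives comprised other pseudocounts, filters, scalings and variance settings, library weights, a replicate block, single transcripts and leaving out each library.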

Additional observations from a re-analysis of the deposited data

Results flagged for a closer look

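Among 36 tested receptor and ligand genes, each checked for 1 naive library far from the other 4, 5 stood out, all through naive replicate 5. By chance about 1 in 20 such checks stands out, and these checks share the same library. Ccr2 was at 38.2 TPM in naive replicate 5, against 11.6 to 16.8 TPM in the other naive libraries, and Cx3cr1 was at 37.3 TPM, against 9.45 to 14.2 TPM. Xcr1, a receptor of cross-presenting dendritic cells, was at 15.2 TPM, against 5.91 to 8.40 TPM, and Mif, a cytokine that also binds Cxcr4, at 82.1 TPM, against 60.3 to 66.2 TPM. Ackr2 was lowest there, at 16.1 TPM, against 29.6 to 34.9 TPM. In the same library the monocyte markers summed to 395.1 TPM, against 235.0 to 283.8 TPM in the other naive libraries, and the sinusoidal endothelium markers to 6568 TPM, against 9294 to 12142 TPM.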

How the results depend on the processing

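Over the alternatives fitted to gene sums, Ccr1, Ccr2, Cx3cr1, Cxcr4 and Ccrl2 kept their direction and their call in 19 of 19 settings each. Ackr3 kept its direction in the 18 in which it was tested and its call in 17 of them. Tested by themselves, NM_009915.2 of Ccr2, NM_009911.3 of Cxcr4 and NM_007722.4 of Ackr3 were not called. Log2 fold changes without 1 library ran from 3.63 to 4.08 for Ccr2, 3.24 to 3.94 for Cx3cr1, 3.75 to 4.58 for Cxcr4 and -1.51 to -1.06 for Ackr3. With at least 5 TPM in 3 libraries Ackr3 was not tested, so 0 of the 7 genes were called lower. Of the other receptors, 4 were called lower with no filter on low values, and with quantile normalization 2 were called higher and 4 lower. Ligands called lower were 1 with library weights and 2 with the replicate block; the cause was not tested. Without 1 library, genes called lower among the 7 ranged from 0 to 1, other receptors called higher from 0 to 1 and lower from 4 to 7, and ligands called higher from 3 to 5 and lower from 0 to 1.

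The replicate block compared in effect only replicates 1 and 3, which share numbers but no stated origin. Deviations of same-numbered libraries correlated at 0.08 and -0.04. With the block 5312 genes were called in place of 5906, and again 5 of the 7 genes higher and 1 lower. The block left too few libraries to gauge the spread of each gene, so its errors came mostly from a variance shared over genes. The SE was 0.301 to 0.316 for all 7 genes, and for Cxcr4 it was 0.314, against 0.69 in the main fit. Calls with the block therefore carry little weight, also where this setting is counted among the alternatives. The exact tests reach 0.0357 at best, and 0.0571 or 0.0952 without 1 library, so leaving one out gives values only. Depth is unknown, so the counting error of values near or under 1 TPM, such as Ackr3 in CCl4 and Ccr1 in naive libraries, cannot be given.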
